A study of Mus musculus with 8 samples.

Results

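The genes described here are 10 members of fibroblast growth factor (FGF) signalling, namely the receptors Fgfr1, Fgfr2 and Fgfr3, the ligands Fgf2, Fgf7, Fgf10, Fgf18 and Fgf23, and the Sprouty genes Spry1 and Spry2. They were taken by symbol from a fixed list, which was chosen with earlier results of these data known, and are 10 of the 49315 genes counted. RNA-seq had been performed on 7 mouse bone marrow stromal populations sorted by surface antigens (clusters 1 to 7) and on input bone marrow cells. The labels describe wild-type C57BL/6J mice of 6 weeks and name no treatment, whereas the methods name C57BL/6JJcl mice and give an age range that begins there, and each population was represented by 1 library, so no difference below has a replicate check or a p-value. Cells positive for CD31, CD45 or Ter119 were gated out, and the populations were then separated as CD24− Sca-1+ CD39+ (cluster 1), Ly-6C− CD24− CD39− (cluster 2), Ly-6C+ CD24+ and CD39/CD54− (cluster 3), Ly-6C− CD54+ CD24− (cluster 4), CD54+ CD121b− and CD24/Ly-6C− (cluster 5), CD24+ Sca-1− CD39− (cluster 6) and CD54− Sca-1+ and CD24/Ly-6C− (cluster 7). These gates were read from the published sorting plots. The GEO labels name the clusters in the sample titles, while their extraction text describes whole crushed marrow, and neither source says how many mice were pooled for a library.

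FGF ligands are secreted proteins that bind receptor tyrosine kinases together with heparan sulphate, and receptor signalling through the adaptor Frs2 activates the Ras and MAP kinase cascade. Sprouty proteins are induced by this cascade and restrain it. In the skeleton, Fgfr3 is known as a brake on growth plate chondrocytes, Fgfr1 and Fgfr2 act in osteoprogenitors and osteoblasts, Fgf18 signals to chondrocytes and osteoblasts, and Fgf23 is a hormone of osteocytes that lowers blood phosphate. Fgf7 and Fgf10 are typical products of mesenchymal cells that signal to epithelia through the IIIb form of Fgfr2.

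Values are RPKM, that is, read counts scaled to the exon length of a gene and the total of its library, computed from the deposited counts. Intervals in parentheses are exact 95% intervals (Poisson for a level, binomial for a ratio). They cover counting error only, since each population had 1 library. PCR copies cannot be told from separate molecules, so the intervals may be too narrow even for counting error. The total count per library was 24205863, 25349917, 27102715, 32549319, 12833648, 31669132 and 33238133 in clusters 1 to 7, in that order, and 20162876 in the input. The cluster 5 library stood apart, since 34.8% of its counts fell on Rn18s-rs5, Lars2 and mmu-mir-689-2, against 10.4% in cluster 2 and at most 1.91% in the other libraries. When TMM factors of edgeR replaced the totals, all log2 values shifted by −0.26, −0.10, −0.02, −0.03, 0.31, 0.26 and −0.16 in the order of the clusters, and levels are by the total count unless TMM factors are named.

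Shown first are the 250 bases upstream of the RefSeq transcription start (GRCm38.p6) of the 5 members above RPKM 2 with the largest ratio of RPKM between the highest and the lowest sorted library. Of these members, Fgf7, Fgf10, Fgf18 and Spry1 were low together in clusters 2 and 6, and Fgfr3 was high in both. Fgf10 was also low in cluster 3, and Spry1 in cluster 5. Capitals mark matches, on either strand, to the GC box GGGCGG or the CCAAT box CCAAT, and all sequences read 5′ to 3′ on the strand of the gene.
Fgf7 promoter (chr2:126034408-126034657, plus strand): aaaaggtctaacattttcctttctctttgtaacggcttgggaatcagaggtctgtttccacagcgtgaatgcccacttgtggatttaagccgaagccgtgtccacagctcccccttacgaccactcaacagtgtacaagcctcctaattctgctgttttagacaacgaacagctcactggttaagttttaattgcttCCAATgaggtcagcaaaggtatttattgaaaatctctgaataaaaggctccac
Fgf10 promoter (chr13:118714449-118714698, plus strand): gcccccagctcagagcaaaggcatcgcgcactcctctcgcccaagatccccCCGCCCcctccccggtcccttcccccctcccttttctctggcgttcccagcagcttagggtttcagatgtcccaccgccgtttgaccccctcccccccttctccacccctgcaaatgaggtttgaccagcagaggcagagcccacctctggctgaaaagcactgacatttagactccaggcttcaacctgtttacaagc
Fgf18 promoter (chr11:33147401-33147650, minus strand): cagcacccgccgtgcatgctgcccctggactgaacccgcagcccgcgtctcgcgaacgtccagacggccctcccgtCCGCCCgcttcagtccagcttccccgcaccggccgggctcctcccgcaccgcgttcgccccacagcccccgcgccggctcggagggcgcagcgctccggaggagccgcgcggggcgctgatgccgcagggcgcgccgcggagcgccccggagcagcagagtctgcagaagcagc
Spry1 promoter (chr3:37639697-37639946, plus strand): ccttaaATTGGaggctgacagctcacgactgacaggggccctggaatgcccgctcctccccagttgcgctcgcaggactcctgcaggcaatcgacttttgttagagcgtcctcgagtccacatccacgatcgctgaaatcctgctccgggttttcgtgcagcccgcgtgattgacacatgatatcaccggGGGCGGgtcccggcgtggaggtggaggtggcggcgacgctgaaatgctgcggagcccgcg
Fgfr3 promoter of the more upstream start (chr5:33721474-33721723, plus strand): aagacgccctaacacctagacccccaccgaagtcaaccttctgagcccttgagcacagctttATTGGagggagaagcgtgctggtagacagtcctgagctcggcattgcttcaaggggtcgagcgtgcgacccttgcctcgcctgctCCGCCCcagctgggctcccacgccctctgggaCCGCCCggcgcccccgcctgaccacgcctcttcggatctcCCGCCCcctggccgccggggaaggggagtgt

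The 5 promoters differed in base composition. Bases G and C made up 43.6% of the Fgf7 promoter and 77.2% of the Fgf18 promoter, with 61.2% for Fgf10, 62.4% for Spry1 and 66.8% for Fgfr3, against a median of 52.4% over 32851 RefSeq promoters of mouse. A GC box was found in 4 of the 5, with 3 matches for Fgfr3, and in 32.7% of all promoters. The Fgf7 promoter was the one without a GC box, and held a CCAAT box that begins 53 bases before the start. Spry1 and Fgfr3 held the CCAAT letters on the opposite strand, and 33.8% of all promoters held this motif. Searches on both strands for the TATA box TATAAA (12.4% of promoters), the ETS core CCGGAA (12.0%), the AP-1 site TGACTCA (4.46%) and the SOX letters AACAAT (9.42%) gave no match in these 5 windows. Matched letters of different motifs did not overlap. Of the 10 genes, 9 had an entry in the promoter table and Fgfr1 had none.

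Receptor, ligand and Sprouty transcripts were widely present in the sorted stroma. RPKM exceeded 2 in at least 1 sorted library for 9 of the 10 members, against 25.1% of all genes, and Fgf23 was the exception. Among these 9 genes, 8 differed more than 2-fold in RPKM + 1 between the highest and the lowest sorted library, a share to be read against 70.6% of the 12360 genes above RPKM 2. With TMM factors Fgfr1 did so as well, which made 9, against 56.6%. The median ratio of highest to lowest library was 4.20 for the members and 2.39 for all genes above RPKM 2 (3.74 and 2.13 with TMM factors). No member exceeded every other sorted library by more than 2-fold, a pattern found in 5.40% of genes, although Fgfr3 in cluster 6 did so with TMM factors.

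**Figure D1:**
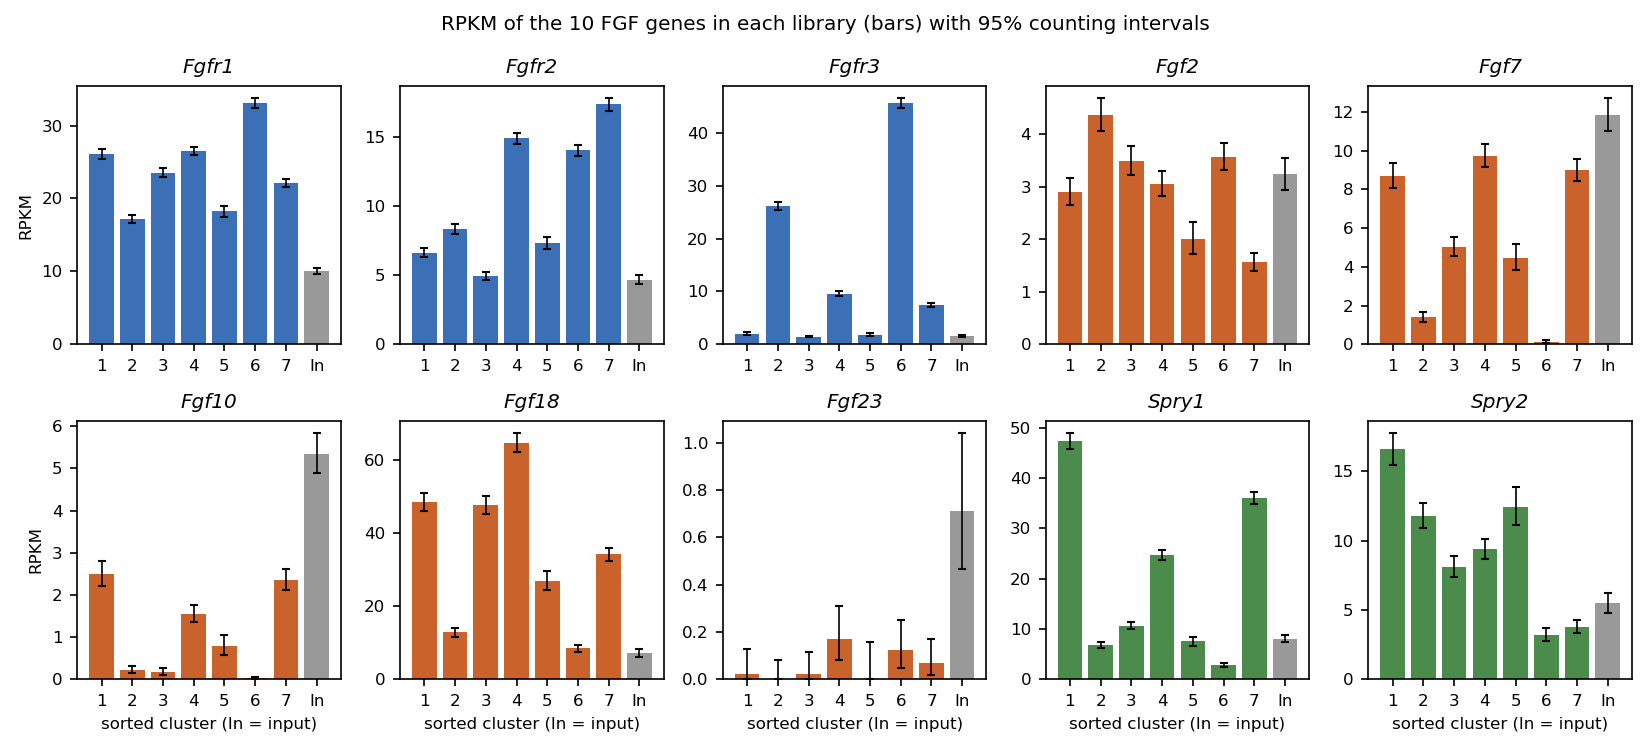
RPKM (vertical axes, each starting at 0) of the 10 genes in the libraries of clusters 1 to 7 and the input (In), with error bars for the exact 95% Poisson interval of each count and 1 library per bar. Fgfr3 stands highest in clusters 6 and 2, whereas Fgf7, Fgf18 and Spry1 stand lowest of the sorted libraries in cluster 6.

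Of the receptors, Fgfr1 was the most evenly expressed and Fgfr3 the most variable. Fgfr1 (ENSMUSG00000031565, chr8:25513654-25575718, plus strand) had 26.1, 17.2, 23.5, 26.5, 18.2, 33.1 and 22.1 RPKM for clusters 1 to 7 in turn, with 10.01 in the input. The highest sorted library, cluster 6, was 1.93 times the lowest, cluster 2 (1.860 to 1.998). With TMM factors this ratio was 2.47. In RPKM + 1 it was 1.88 by the total count and 2.39 with TMM factors. Clusters 4 and 1 were not separated by counting error, and every sorted library lay above the input.

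For Fgfr3 (ENSMUSG00000054252, chr5:33721674-33737068, plus strand) the levels were 2.03, 26.1, 1.44, 9.61, 1.81, 45.7 and 7.38 RPKM from cluster 1 through cluster 7, against 1.58 in the input. Clusters 6 and 2 thus stood apart, clusters 4 and 7 were intermediate, and clusters 1, 5 and 3 were near the level of the input, although with TMM factors over all 8 libraries cluster 5 had 2.44 RPKM, cluster 1 had 1.84, cluster 3 had 1.47 and the input 0.989. Cluster 6 had 31.7 times the level of cluster 3 (28.1 to 35.8), 1.75 times that of cluster 2 (1.69 to 1.81), and cluster 2 had 2.72 times that of cluster 4 (2.59 to 2.86). Clusters 1 and 5 were not separated by counting error. In RPKM + 1 the ratio of highest to lowest library was 19.1, and 11.1 without the cluster 6 library. An unnamed antisense gene shares 13.9% of the exon length of Fgfr3 and had at most 33 counts in a sorted library.

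The summed chondrocyte markers were highest in clusters 6 and 2, as was Fgfr3. The 7 listed markers (Col2a1, Acan, Sox9, Matn3, Comp, Col9a1 and Col10a1) summed to 609, 12922, 1120, 5555, 641, 15470 and 1619 RPKM in clusters 1 to 7, in that order, and 972 in the input. Ranked by this sum, the leading 4 libraries were clusters 6, 2, 4 and 7, as for Fgfr3. In cluster 7, however, Comp alone held 1326 of the 1619 RPKM. Col2a1 (185 RPKM) and Sox9 (45.8) were lower there than in cluster 1 (192 and 54.8), whereas Acan, Matn3, Col9a1 and Col10a1 were higher. Fgfr3 had 3.63 times the level of cluster 1 in cluster 7. Col2a1, the main cartilage collagen, was the most abundant marker in clusters 2, 4 and 6, at 8611, 3046 and 10541 RPKM, and Comp, a cartilage and tendon matrix protein, in the other libraries. No marker of the list was at 0 in any library, and RPKM exceeded 2 for all 7 except Matn3 in cluster 3 and Col10a1 in the input. In these bulk libraries more cells of a type and more RNA per cell cannot be told apart, and the part of the chondrocyte markers in the Fgfr3 levels was not tested.

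The transcripts of Fgfr2 (ENSMUSG00000030849, chr7:130162451-133123350, minus strand) reached 6.62, 8.33, 4.94, 14.9, 7.33, 14.1 and 17.4 RPKM for clusters 1 to 7 in turn, with 4.69 in the input. Clusters 7, 4 and 6 formed the upper group, and cluster 7 had 3.52 times the level of cluster 3 (3.32 to 3.74). With TMM factors cluster 6 was highest and cluster 7 followed. The gene model used for counting spans 2961 kb against 104 kb in RefSeq, and reaches upstream of the RefSeq start of Fgfr2. It has 314 exon bases there, 3.04% of its exon length, which are shared with Ctbp2 on the same strand. Counts per gene do not separate the IIIb and IIIc forms of the receptor, which differ in the ligands they bind.

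Ratios within a library do not depend on the scaling, and showed a change in the leading receptor. Fgfr3 exceeded Fgfr1 in cluster 2, with a ratio of RPKM of 1.52 (1.46 to 1.59), and in cluster 6, with 1.38 (1.34 to 1.42). Intermediate ratios of 0.362 and 0.334 were found in clusters 4 and 7, and the input had 0.158. Clusters 1, 3 and 5 had the lowest ratios, at 0.0778, 0.0613 and 0.0992. Summed over the 3 receptors, cluster 6 had the highest level with 92.9 RPKM and cluster 5 the lowest of the sorted libraries with 27.4 RPKM, and the input had 16.3 RPKM. This sum depends on the scaling, and with TMM factors cluster 1 was lowest and cluster 6 still highest. Fgfr3 made up 49.2% of this sum in cluster 6 and 50.6% in cluster 2, whereas Fgfr1 made up 75.1% in cluster 1, 78.7% in cluster 3 and 66.6% in cluster 5.

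**Figure D2:**
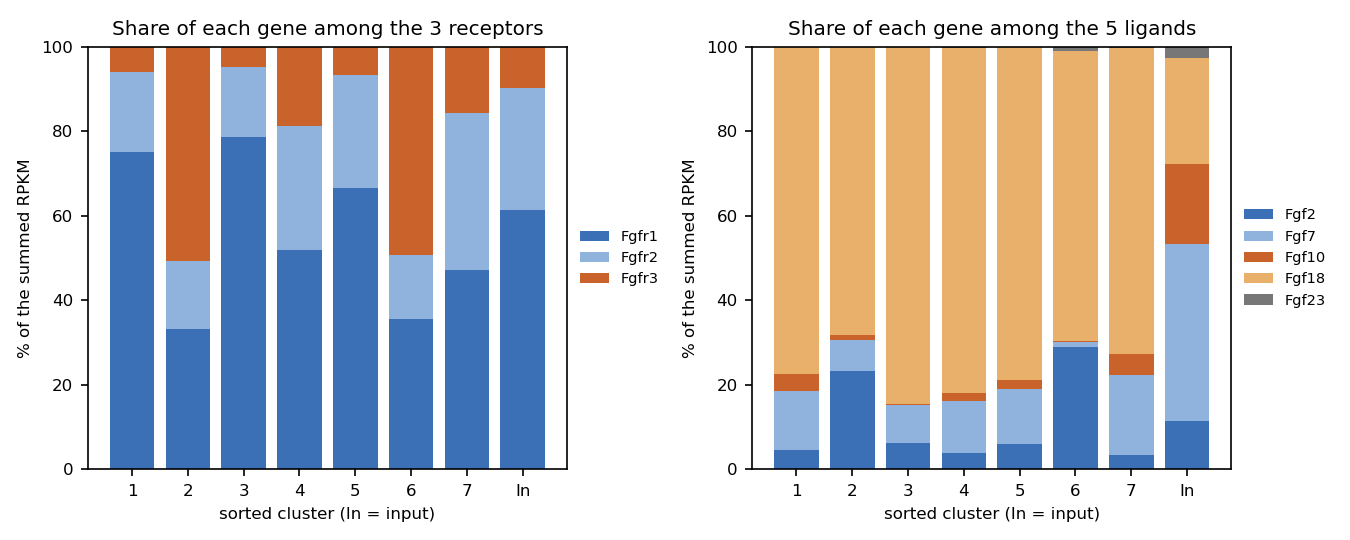
Share in % of the summed RPKM held by each of the 3 receptors (left) and each of the 5 ligands (right) in the libraries of clusters 1 to 7 and the input (In), with 1 library per bar. Fgfr3 holds about as much as all other receptors in clusters 2 and 6, and Fgf18 leads the ligands in every sorted library but not in the input.

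Among the ligands, Fgf18 was the most abundant in every sorted library, and it was low in clusters 2 and 6. Fgf18 (ENSMUSG00000057967, chr11:33117430-33147400, minus strand) was found at 48.6, 12.8, 47.7, 64.9, 27.1, 8.46 and 34.2 RPKM from cluster 1 through cluster 7, against 7.14 in the input. Cluster 4 had 7.67 times the level of cluster 6 (6.82 to 8.65), and clusters 1 and 3 were not separated by counting error. Among the 5 ligands Fgf18 held 68.2% (cluster 2) to 84.6% (cluster 3) of the summed RPKM in the sorted libraries and 25.3% in the input, where Fgf7 led with 41.9%. The sum of these 5 ligands was 12.3 RPKM in cluster 6, where the receptor sum was highest, 18.8 in cluster 2 and 79.4 in cluster 4. It leaves out the other secreted ligands. Of those, Fgf1 had 6.08 RPKM in cluster 6 and 4.02 in cluster 4, and Fgf16 had 0 and 3.25.

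Fgf7 (ENSMUSG00000027208, chr2:126034658-126091185, plus strand), a growth factor for epithelial cells, had a similar order of libraries and a wider range. Its level was 8.70, 1.40, 5.02, 9.73, 4.46, 0.136 and 9.004 RPKM in clusters 1 to 7, in that order, and 11.8 in the input. Counting error did not separate cluster 4 from cluster 7, cluster 7 from cluster 1, or cluster 3 from cluster 5. Only 14 counts were found in cluster 6, against 1029 in cluster 4, a ratio of RPKM of 71.5 (42.4 to 131). Cluster 2 still had 10.3 times the level of cluster 6 (5.87 to 19.4). In RPKM + 1 the ratio of highest to lowest library was 9.45, and 4.48 without the cluster 6 library.

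Transcripts of Fgf10 (ENSMUSG00000021732, chr13:118669791-118792115, plus strand), the closest relative of Fgf7 here, were scarcer and were held mostly by clusters 1, 7 and 4. They reached 2.49, 0.21, 0.17, 1.55, 0.779, 0.0206 and 2.35 RPKM for clusters 1 to 7 in turn, with 5.35 in the input. Clusters 1 and 7 were not separated by counting error, and the input exceeded every sorted library. Cluster 6 had 3 counts and cluster 1 had 277, a ratio of 121 (40.9 to 589). In RPKM + 1 the ratio was 3.42, and 2.98 without the cluster 6 library. Unlike Fgf7, Fgf10 was near its lowest levels in cluster 3, where the ratio of Fgf7 to Fgf10 was 29.8 (19.3 to 48.7), against 3.50 in cluster 1 and 6.28 in cluster 4. This low level rests on 21 counts in cluster 3. The gene model used for counting Fgf10 starts further upstream than the RefSeq gene and spans 122 kb against 77.9 kb.

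Fgf2 (ENSMUSG00000037225, chr3:37348346-37410108, plus strand), a ligand that lacks a classical secretion signal, was low and had the smallest ratio between libraries of the 4 ligands above RPKM 2. It had 2.90, 4.36, 3.49, 3.06, 2.01, 3.57 and 1.56 RPKM from cluster 1 through cluster 7, against 3.24 in the input. The highest library, cluster 2, was 2.79 times the lowest, cluster 7 (2.46 to 3.18), and with TMM factors cluster 6 was highest. In RPKM + 1 this ratio was 2.09, and it was 1.78 without the cluster 2 library and 1.78 without the cluster 7 library. With Fgf7, Fgf10 and Fgf18 low there, Fgf2 made up 29.0% of the sum of the 5 ligands in cluster 6 and 23.2% in cluster 2. It made up at most 6.18% in the other sorted libraries. Fgf1, which is outside this sum, was above Fgf2 in cluster 6, at 6.08 RPKM. The antisense gene Nudt6 shares 9.44% of the exon length of Fgf2 and had 27 to 58 counts per sorted library.

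Fgf23 (ENSMUSG00000000182, chr6:127072902-127081408, plus strand) was barely detected. The sorted libraries held 1, 0, 1, 10, 0, 7 and 4 counts in the order of the clusters, and the input held 26. A count of 0 allows up to 0.0652 RPKM in cluster 2 and 0.129 RPKM in cluster 5, taking 3 counts as the limit. The highest sorted level was 0.17 RPKM in cluster 4, and the input had 0.711 RPKM (0.464 to 1.04). In the input 38478 genes had a count, against at most 28462 in a sorted library. Other genes near 0 in the sorted libraries had input levels of 1.71 (Fgf4) and 1.21 RPKM (Klb), although Fgf6 and Fgf15 had 0.032 each. The source of the Fgf23 counts in the input was not tested. No neighbouring libraries in the order of levels were separated by counting error. Genes known to regulate or process Fgf23 were highest in cluster 6, the library with the highest sum of osteoblast and osteocyte markers, a list that itself contains Dmp1 and Phex. Dmp1, a matrix protein of osteocytes, had 415 RPKM in cluster 6 and 203 in cluster 3, against 3.51 in cluster 1. Phex, an osteocyte endopeptidase, had 11.5 RPKM in cluster 6 and 0.394 in cluster 1. Fam20c, a kinase of secreted proteins, had 23.5 RPKM in cluster 6 and 4.90 in cluster 5. The 10 osteoblast and osteocyte markers summed to 4663, 9919, 31539, 3119, 13740, 38779 and 4101 RPKM over clusters 1 to 7, and to 926 in the input. Col1a1 or Bglap was the most abundant of them, and Sost was at 0 in clusters 1, 4 and 7 and in the input. Their part in the levels of these genes was not tested.

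The Sprouty genes differed from each other. Spry1 (ENSMUSG00000037211, chr3:37639947-37644598, plus strand) had 47.3, 6.76, 10.6, 24.6, 7.48, 2.77 and 35.99 RPKM in clusters 1 to 7, in that order, and 8.02 in the input. Clusters 1, 7 and 4 stood above the rest, each separated from the next by counting error, and cluster 1 had 17.1 times the level of cluster 6 (15.03 to 19.47). This order was the same with TMM and DESeq2 factors, and clusters 5 and 2 were the pair not separated by counting error. In RPKM + 1 the ratio of highest to lowest library was 12.8, and 6.23 without the cluster 6 library. An unnamed antisense gene with at most 19 counts in a sorted library shares 24.4% of the Spry1 exon length.

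Spry2 (ENSMUSG00000022114, chr14:105891949-105896819, minus strand) was at 16.6, 11.8, 8.09, 9.37, 12.4, 3.20 and 3.78 RPKM for clusters 1 to 7 in turn, with 5.47 in the input. Clusters 6 and 7 were low and not separated from each other by counting error, and cluster 1 had 5.20 times the level of cluster 6 (4.46 to 6.07). With TMM factors cluster 5 was highest and cluster 7 lowest. By the total count, cluster 7 was therefore second highest for Spry1 and second lowest for Spry2. The ratio of Spry1 to Spry2 was accordingly highest in cluster 7, at 9.52 (8.39 to 10.8). It was 2.85, 0.574, 1.31, 2.63, 0.601 and 0.867 (0.720 to 1.05 for the last) in clusters 1 to 6, and 1.47 in the input.

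Across the 9 members above RPKM 2, the lowest sorted library was cluster 6 for 5 genes (Fgf7, Fgf10, Fgf18, Spry1 and Spry2), against 25.5% of all genes above RPKM 2, and for 4 with TMM factors, against 17.3%. The same library was the highest for Fgfr1 and Fgfr3, 2 of 9, against 7.10% of genes, and for 4 of 9 with TMM factors, against 20.3%. Cluster 1 was the highest for 3 members, Fgf10, Spry1 and Spry2, against 21.3%, and for Spry1 alone with TMM factors, against 8.69%. No member was lowest in cluster 5, although 46.3% of genes were (28.3% with TMM factors). Cluster 4 was the highest for Fgf7 and Fgf18, against 8.95% (11.8% with TMM factors, where both stayed highest there). Over the 7 sorted libraries Pearson's r of log2(RPKM + 1) was 0.94 between Fgf7 and Fgf18, 0.93 between Fgf10 and Spry1 and 0.90 between Fgf7 and Spry1, and it was −0.75 between Fgfr3 and Fgf18. These coefficients rest on 7 points that share 1 library each for both genes, and serve as a description. Spry1 and Spry2 had an r of 0.30 (0.13 with TMM factors).

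**Figure D3:**
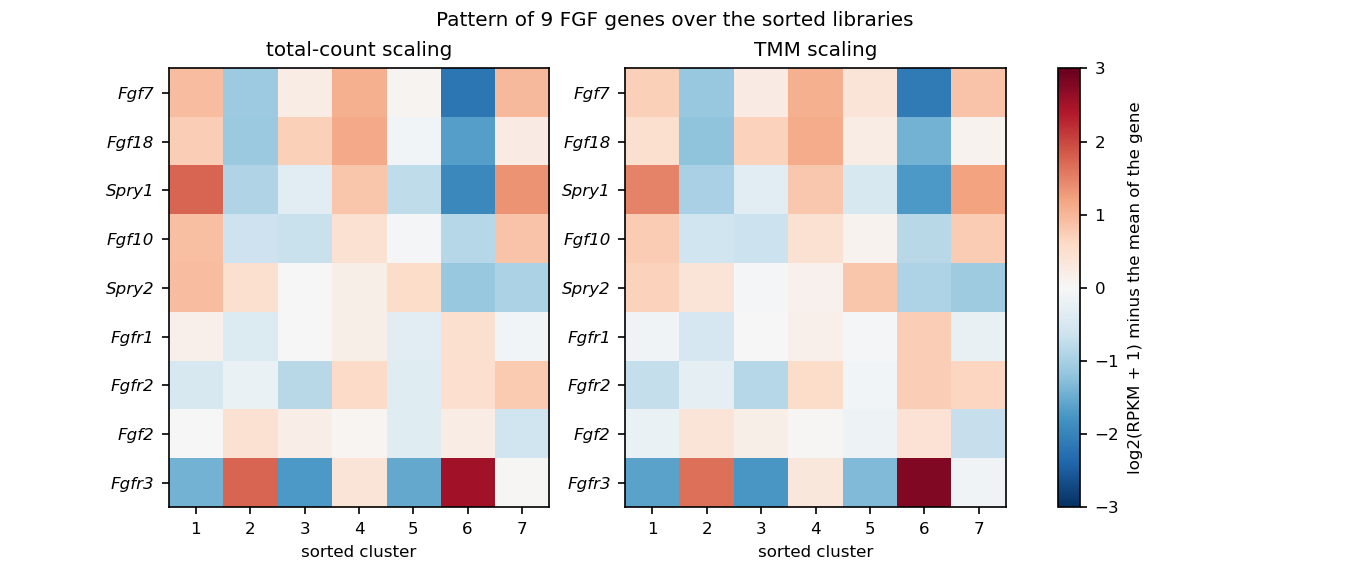
Difference of log2(RPKM + 1) from the mean of each gene over the 7 sorted libraries, from blue (below) to red (above), with scaling by the total count (left) and by TMM factors (right). The 4 upper genes, Fgf7, Fgf18, Spry1 and Fgf10, are below their mean in clusters 2 and 6 under both scalings, where Fgfr3 is above its mean.

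Stromal marker lists showed where the ligand-rich libraries stood. The 8 reticular stromal markers (Cxcl12, Lepr, Kitl, Adipoq, Pdgfra, Pdgfrb, Ebf3 and Foxc1) summed to 135, 62.6, 78.4, 274, 99.2, 47.0 and 181 RPKM from cluster 1 through cluster 7, against 79.4 in the input. Clusters 4, 7 and 1 had the highest sums, and these 3 also had the highest levels of Fgf7, Fgf10 and Spry1 among the sorted libraries, although with TMM factors cluster 5 passed cluster 1 in the marker sum. The input, with a sum below theirs, had more Fgf7 and Fgf10 than any of them by the total count, and with TMM factors more Fgf10. Cxcl12, a chemokine that retains blood progenitors, led the list in cluster 4 with 139 RPKM, and Pdgfrb led it in cluster 1 with 45.3. Single markers did not all follow the sum. By the total count Kitl, Pdgfra and Ebf3 were highest in cluster 1, whereas Cxcl12, Lepr and Adipoq were lower there than in cluster 5. Foxc1 was highest in cluster 2 (27.9 RPKM) and lowest of the sorted libraries in cluster 1 (14.4 RPKM). RPKM exceeded 2 for 5 of the 8 markers in clusters 2 and 6, for 6 in the input and for 7 in the others, and none was at 0. The 6 adventitial fibroblast markers (Pi16, Cd34, Dpp4, Clec3b, Ly6a and Dpt) summed to 1314, 145, 1406, 887, 168, 14.8 and 507 RPKM in clusters 1 to 7, in that order, and 837 in the input. Ly6a, which encodes Sca-1, was the most abundant of them in all libraries, at 931 RPKM in cluster 3 and 4.98 in cluster 6. Sca-1 was itself a sort antigen, positive in the gates of clusters 1 and 7 and negative in that of cluster 6. By the total count Pi16, Cd34, Clec3b and Dpt were highest in cluster 1, and Ly6a and Dpp4 in cluster 3. Dpp4 was lower in cluster 4 (1.08 RPKM) than in cluster 6 (1.68 RPKM). Among the sorted libraries the 4 highest sums, in clusters 3, 1, 4 and 7, belonged to those with the most Fgf18, although with TMM factors cluster 5 passed cluster 7 for Fgf18 (33.6 against 30.7 RPKM). The input combined an adventitial sum of 837 RPKM with the lowest Fgf18 level. The part of either list in the ligand and Sprouty levels was not tested.

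**Figure D4:**
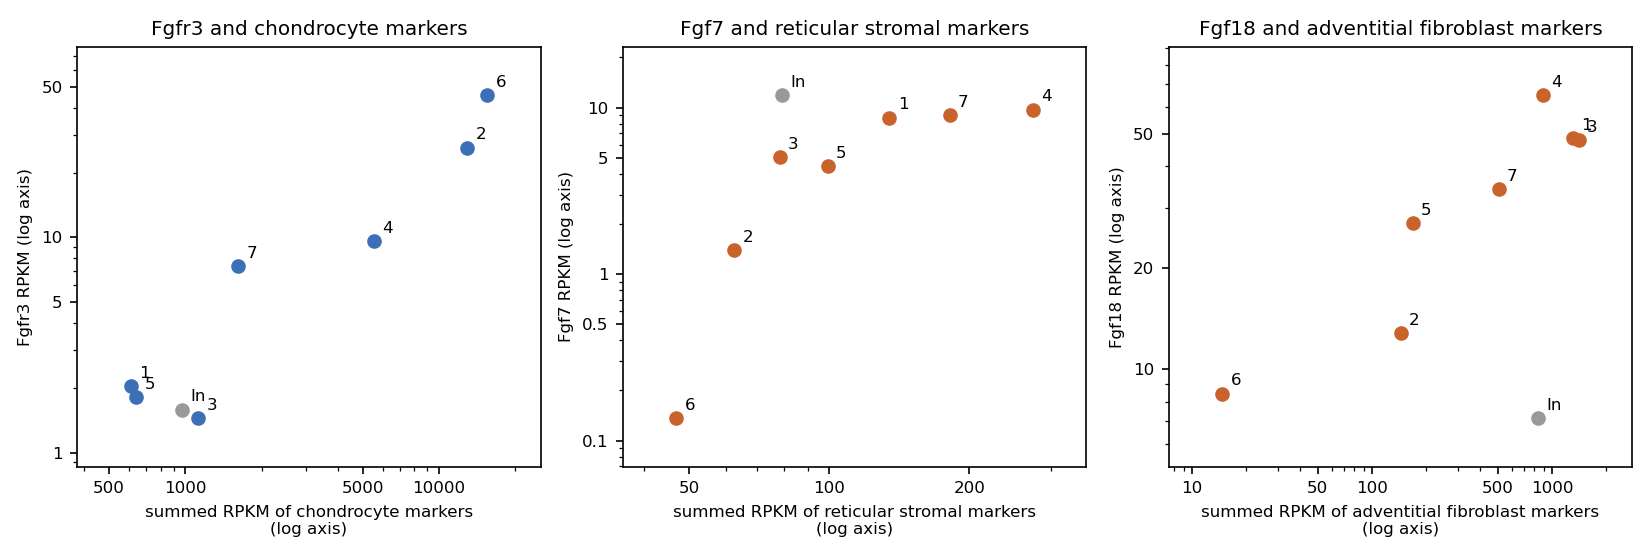
RPKM of Fgfr3, Fgf7 and Fgf18 (vertical, log axes) against the summed RPKM of chondrocyte, reticular stromal and adventitial fibroblast markers (horizontal, log axes), with 1 point per library labelled by its cluster number or In for the input (grey). Fgfr3 is highest in clusters 6 and 2 with the highest chondrocyte sums, and the input lies well below the sorted libraries of similar adventitial sum for Fgf18.

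Transcripts typical of other cell types were also found in the gated populations. The 8 myeloid markers summed to 10668 (cluster 3) to 27549 RPKM (cluster 7) in the sorted libraries and to 41289 in the input, with the neutrophil gene S100a9 as the most abundant in every library. Ptprc, which encodes the excluded antigen CD45, had 1.69 (cluster 3) to 9.26 RPKM (cluster 7) and 13.5 in the input. The 7 erythroid markers summed to 14563, 13323, 7330, 2260, 68508, 1592 and 7411 RPKM over clusters 1 to 7, and to 689 in the input, so that cluster 5 stood apart. The 8 endothelial markers summed to at most 17.0 RPKM in a sorted library and to 16.3 in the input. The 6 pericyte and smooth muscle markers summed to 29.0 (cluster 5) to 109 RPKM (cluster 7) and to 28.7 in the input, and the 6 B lineage markers to 31.7 (cluster 3) to 105 RPKM (cluster 7) and to 248 in the input. Pdgfra, an antigen of the stromal fraction from which the clusters were defined, ranged from 4.37 RPKM in cluster 2 to 28.1 in cluster 1. Transcripts of the sort antigens did not always follow the gates. Cd24a was highest in the CD24+ cluster 6 at 137 RPKM, but it was 49.9 in the CD24+ cluster 3 and 126 in the CD24− cluster 2, and Icam1, which encodes CD54, had 149.6 RPKM in the CD54− cluster 7 against 44.5 in the CD54+ cluster 5. With TMM factors the highest library became cluster 5 for the myeloid and cluster 7 for the Pdgfra values. The source of the transcripts typical of other cell types, and their part in the levels of the FGF genes, were not tested.

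Further genes of the pathway were taken from 8 lists of 66 symbols, of which 65 were matched and Spry3 was not. RPKM exceeded 2 for 40 of them, and 34 of the 40 differed more than 2-fold between the highest and the lowest sorted library (32 with TMM factors). The share of all genes above RPKM 2 was 70.6%, or 56.6% with TMM factors, and the counts per list below are to be read against the same shares. Their median ratio was 3.24, compared with 2.39 for all genes. Among 13 other secreted ligands, 4 exceeded RPKM 2 (Fgf1, Fgf9, Fgf16 and Fgf21), and all 4 varied more than 2-fold. Fgf1, which binds all FGF receptors, had 7.62 RPKM in cluster 1, 6.08 in cluster 6 (the highest library with TMM factors) and 0.721 in cluster 5. Fgf16, a relative of Fgf9, had 9.69 RPKM in cluster 3 and 8.34 in cluster 1, and no count in cluster 6. None of the 4 intracellular FGF homologous factors exceeded RPKM 2.

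Of 4 other receptors and co-receptors, Fgfrl1 exceeded RPKM 2 in a sorted library, and Fgfr4 and the Klotho genes Kl and Klb did not. Fgfrl1 encodes a receptor-like protein without a tyrosine kinase domain. It had 10.8, 54.8, 6.96, 33.1, 8.79, 47.1 and 13.9 RPKM for clusters 1 to 7 in turn, with 1.82 in the input. Clusters 2, 6 and 4, the highest here, were also the 3 highest for Fgfr3, with cluster 2 ahead of cluster 6 by the total count and cluster 6 ahead with TMM factors. In cluster 2 Fgfrl1 had 3.19 times the level of Fgfr1, the highest ratio of the libraries.

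Adaptors had the smallest median ratio of the lists, at 1.60. Of 8 listed, 7 exceeded RPKM 2 and 3 varied more than 2-fold (2 with TMM factors). Grb2, which links receptors to Ras activation, ranged from 19.1 RPKM in cluster 5 to 24.9 in cluster 7, and Ptpn11, the phosphatase Shp2, from 4.53 in cluster 6 to 14.0 in cluster 1. Gab1, a docking protein, and Shc1, an adaptor, were highest at 10.5 RPKM in cluster 6 and 27.5 in cluster 7. Of 8 matched feedback inhibitors, 5 exceeded RPKM 2 and 4 varied more than 2-fold. Dusp6, the phosphatase of ERK, ranged from 15.1 RPKM in cluster 2 to 32.8 in cluster 7 and was 36.5 in the input. Dusp5, a nuclear ERK phosphatase, was highest in cluster 2 at 99.8 RPKM and lowest in cluster 3 at 23.1. Spry4 had 7.79 RPKM in cluster 1, 7.50 in cluster 4 and 7.32 in cluster 7, the 3 libraries in which Spry1 was highest, and 2.43 to 3.96 in the other sorted libraries. Of the ETS factors that FGF signalling induces, Etv1 was highest in cluster 1 at 5.37 RPKM and lowest in cluster 6 at 1.11, whereas Etv5 was highest in cluster 6 at 13.4 and lowest in cluster 5 at 3.38. With TMM factors cluster 3 was lowest for Etv1 and cluster 1 for Etv5. Those factors also made cluster 6 the highest library for Dusp6 and Grb2 and cluster 4 for Spry4, and cluster 2 the lowest for Grb2.

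Heparan sulphate and FGF-binding genes varied more than the adaptors. Of 21 listed, 17 exceeded RPKM 2 and 16 varied more than 2-fold (15 with TMM factors), with a median ratio of 3.45. Gpc3, a glypican on the cell surface, had 81.1, 57.4 and 33.4 RPKM in clusters 4, 7 and 1, the sorted libraries that also led for Fgf7, and 1.12 RPKM in cluster 6. The syndecan Sdc3 went the other way, with 162 RPKM in cluster 6 and 58.5 in cluster 2, against 11.8 in cluster 5. Sdc4 was highest in clusters 2, 6 and 4, at 426, 280 and 267 RPKM, and lowest in cluster 5, at 64.0. Sdc2 was highest in cluster 3 at 197 RPKM and lowest in cluster 6 at 43.6. With TMM factors the lowest library was cluster 2 for Sdc2 and cluster 1 for Sdc3. All 4 genes that regulate or process Fgf23 exceeded RPKM 2 and varied more than 2-fold.

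**Figure D5:**
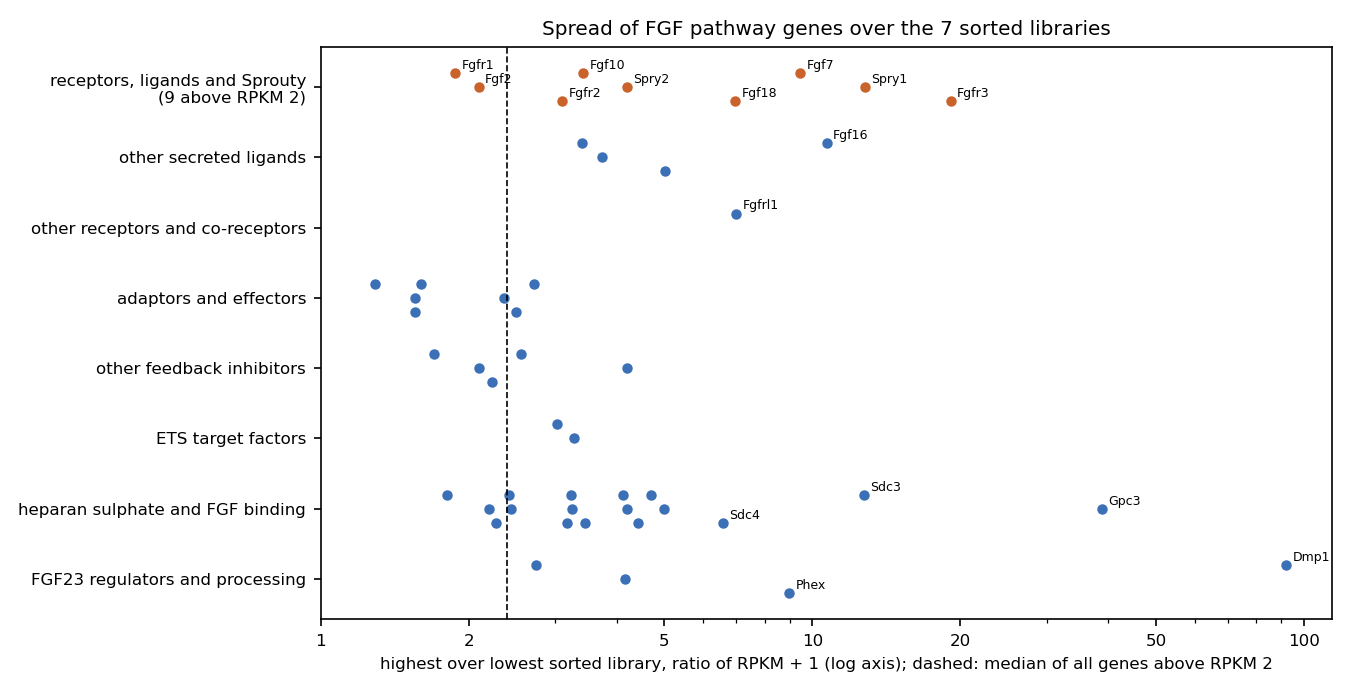
Ratio of RPKM + 1 between the highest and the lowest of the 7 sorted libraries (log axis) for the 9 members above RPKM 2 (orange) and for the 40 other pathway genes above RPKM 2 (blue) by list, with a dashed line at 2.39, the median of all genes above RPKM 2. Adaptors lie near the line or to its left, whereas Dmp1, Gpc3, Fgfr3, Spry1 and Sdc3 lie far to its right.

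Genes with the most similar profile to each member were sought among 10957 genes by Pearson's r of log2(RPKM + 1) over the 7 sorted libraries, with 3 named per member, and with so few points many genes reach high coefficients. Nearest to Fgfr3 were Acsf2 (0.99), Susd5 (0.99) and Hs3st3b1 (0.98), which encodes a heparan sulphate sulphotransferase. Nearest to Fgf7 were C1s (0.99), a complement protease, Mnda (0.99) and Fgl2 (0.99). Fgf10 was closest to Angpt1 (0.996), the ligand of the Tie2 receptor, B3gnt8 (0.99) and Gfra2 (0.99). Spry1 was closest to Ier5l (0.996), the chemokine Ccl11 (0.99) and Tcf4 (0.99), and Fgf18 to 1700017B05Rik (0.996), Pdlim2 (0.98) and the chemokine Cxcl1 (0.97). Fgfr1 was closest to Lrp12 (0.97), Fam38a (0.94) and Gm12473 (0.93), and Fgfr2 to the gelatinase Mmp9 (0.97), Mpzl1 (0.96) and the leukocyte integrin gene Itgb2 (0.95). Fgf2 was closest to Gm13889 (0.99), 1810062G17Rik (0.95) and Il15ra (0.95), and Spry2 to Gm11655 (0.98), Ptms (0.98) and Rtf1 (0.98). With TMM factors, 2 of the 3 genes were again among the nearest 3 for Fgfr1, Fgfr2, Fgfr3, Fgf2, Fgf7 and Spry1, 1 for Fgf10 and Fgf18, and 0 for Spry2.

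Compared with the median sorted library, the input was low for receptors and Fgf18 and high for Fgf7 and Fgf10. In RPKM + 1, 3 of the 9 members were more than 2-fold lower in the input, at ratios of 0.449 for Fgfr1, 0.308 for Fgfr3 and 0.231 for Fgf18. This compares with 2.89% of the 19088 genes above RPKM 2 in a sorted library or in the input. Fgf7, with a ratio of 2.13, and Fgf10, with 3.57, were more than 2-fold higher, against 43.0% of the same genes. This set is wider than that of the sorted libraries alone. Genes in it through the input only cannot be called lower, whereas all 9 members exceeded RPKM 2 in a sorted library. The share called lower is therefore held down by the choice of set, and the share called higher may be raised, under both scalings. The median gene had a ratio of 1.72 under scaling by total count and 0.984 with TMM factors. With TMM factors, Fgfr2 and Spry2 were also lower, which made 5 members against 9.68% of 16268 genes, and Fgf10 alone was higher at 2.12, against 24.6%. Fgfr1, Fgfr2 and Fgf18 were lower in the input than in every sorted library under both scalings, although by the total count the counting intervals of the input and the lowest sorted library overlapped for Fgfr2 and Fgf18. The input differed in other ways as well, since 3719 of the 12793 genes without a count in any sorted library had at least 3 counts in the input.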

How the data were processed

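RNA-seq libraries of 7 sorted populations and input cells, 1 each, were used. Raw counts of reads on the exons of Ensembl genes were deposited, with exon positions and lengths. Per the paper's methods, reads were trimmed and aligned by TopHat2 to mm9 within Partek Flow, whereas the deposited positions are those of GRCm38. The counting tool, strandedness and treatment of shared reads are not given in the sources used here, so reads of overlapping antisense genes cannot be told apart.

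RPKM was computed from the deposited counts and exon lengths with the sum over all genes as library total, and the thresholds were RPKM above 2 and 2-fold in RPKM + 1. Ratios between libraries for single genes are of RPKM unless RPKM + 1 is named. The total count ranged from 12833648 to 33238133. With 1 library per population no test was made, and edgeR 4.0.16 and DESeq2 1.42.0 gave scaling factors only. Symbols were available for 32465 of the 49315 genes, 3 of them listed genes matched by position. Named were all 10 members; per pathway list the 2 genes with the highest level and the 2 with the largest ratio; per member the 3 genes with the most similar profile, among genes with at least 50 counts in a sorted library; and per marker list its most abundant gene. Further pathway and marker genes were named after their values were seen. Members and lists were chosen with earlier results of these data known. Alternatives were other scaling, a pseudocount of 0.1, other filters and omission of single libraries. Calculations were tested on simulated counts. R 4.3.3 and Python 3.11.15 were used, the latter with matplotlib 3.10.9, scipy 1.17.1, pandas 2.3.3 and numpy 2.4.6.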

Additional observations from a re-analysis of the deposited data

How the results depend on the processing

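Of 69 recomputed counts of genes, 61 were within 1.5 times the original. The number of members above every other sorted library by more than 2-fold was 0 and became 1 with TMM factors and 1 with DESeq2 size factors, and ranged from 0 to 1 when single libraries were left out. It was 1, Fgfr3, without the cluster 2 or the cluster 6 library. The number of members below the median sorted library in the input was 3 and became 5 with TMM factors and 5 with DESeq2 size factors, and ranged from 3 to 5 when single libraries were left out, with 5 without the cluster 2 or the cluster 5 library. The number that varied more than 2-fold was 7 without the cluster 2 or the cluster 7 library. The cause of these changes was not tested. The ratio of highest to lowest library in RPKM + 1 changed by over 1.5 times in 7 of 120 recomputed values. Of these, 4 were with the pseudocount of 0.1, which raised it to 29.7 for Fgfr3, 41.6 for Fgf7, 21.5 for Fgf10 and 2.69 for Fgf23 (from 19.1, 9.45, 3.42 and 1.17), and 3 were without the cluster 6 library, for Fgfr3, Fgf7 and Spry1. Apart from omission of that library itself, the highest library of a member changed in 8 of 100 recomputed values, for Fgfr2, Fgf2, Fgf10 and Spry2, and the lowest in 2 of 100, both for Spry2, with Fgf23 tied at 0 in clusters 2 and 5. Omission of the libraries other than cluster 5, and the lowest library of each member, were chosen after seeing the data. The genes with the most similar profile are the least stable result, since 100 of 108 recomputed sets changed. Without replicates, counting error is a lower limit of the true error, and levels of Fgf23, and of Fgf10 in clusters 3 and 6, rest on few counts. No paired analysis was possible because none of the populations was sampled again.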
